A study of Mus musculus with 16 samples.

Results

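The 8 genes of zinc and copper handling were followed across the epithelium of the neonatal and the weaned mouse intestine: the zinc importers Slc39a4 and Slc39a5, the zinc exporters Slc30a1 and Slc30a10, the metallothioneins Mt1 and Mt2, the copper importer Slc31a1 and the copper pump Atp7a. They were chosen by name from 24421 annotated genes, with no measured value in the rule but with earlier results of these data known. Each of the 8 passed the filter on low counts. The study sequenced bulk mRNA of jejunal and ileal epithelium, detached from short gut segments with EDTA, to ask how the regions differ before and after weaning. The 16 libraries fell into 4 groups of 4: P6 jejunum, P6 ileum, P36 jejunum and P36 ileum, where P6 and P36 are postnatal days 6 and 36. All mice were wild type of the strain C57BL6/J with no treatment named in the labels, 2 females and 2 males at each age, and each of the 8 mice gave both regions. Each library therefore came from 1 animal, and the age comparison was between different animals.

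Zinc enters the enterocyte from the gut lumen through ZIP4, the product of Slc39a4, which is moved to the apical membrane when zinc is scarce. ZIP5 (Slc39a5) sits on the opposite, basolateral side, and ZNT1 (Slc30a1) exports zinc towards the blood, while metallothioneins are small cysteine-rich proteins that bind zinc and copper inside the cell. The zinc-sensing factor MTF1 binds metal response elements (MREs) in the promoters of Mt1, Mt2 and Slc30a1. Copper is taken up by CTR1 (Slc31a1) and is passed on by the ATP7A pump, whose loss causes Menkes disease in humans. ZNT10 (Slc30a10) is placed by sequence among the zinc exporters and is best known for exporting manganese.

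The 300-base windows around the annotated start sites of Mt1, Mt2 and Slc30a1 are shown because these are the textbook metal-responsive genes among the 8. They run from 250 bases before to 50 bases after the start, 5′ to 3′ on the gene's own strand (RefSeq, GRCm38.p6, the same assembly as mm10), and capitals mark each match to the MRE core, searched as TGCACNC or TGCGCNC on both strands with overlapping matches counted. The windows are chr8:94178839-94179138 (Mt1, plus strand), chr8:94172368-94172667 (Mt2, plus strand) and chr1:191906531-191906830 (Slc30a1, plus strand).
Mt1: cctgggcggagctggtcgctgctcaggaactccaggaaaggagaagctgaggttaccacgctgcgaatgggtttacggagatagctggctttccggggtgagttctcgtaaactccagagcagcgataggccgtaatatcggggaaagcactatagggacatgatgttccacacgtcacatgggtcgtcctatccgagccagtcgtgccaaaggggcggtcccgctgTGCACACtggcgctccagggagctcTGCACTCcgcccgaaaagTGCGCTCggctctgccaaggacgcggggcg
Mt2: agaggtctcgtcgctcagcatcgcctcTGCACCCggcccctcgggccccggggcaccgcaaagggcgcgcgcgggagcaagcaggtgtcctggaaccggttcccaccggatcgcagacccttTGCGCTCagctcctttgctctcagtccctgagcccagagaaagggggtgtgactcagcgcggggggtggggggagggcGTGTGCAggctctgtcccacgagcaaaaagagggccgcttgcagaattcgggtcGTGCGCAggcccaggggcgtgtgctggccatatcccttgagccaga
Slc30a1: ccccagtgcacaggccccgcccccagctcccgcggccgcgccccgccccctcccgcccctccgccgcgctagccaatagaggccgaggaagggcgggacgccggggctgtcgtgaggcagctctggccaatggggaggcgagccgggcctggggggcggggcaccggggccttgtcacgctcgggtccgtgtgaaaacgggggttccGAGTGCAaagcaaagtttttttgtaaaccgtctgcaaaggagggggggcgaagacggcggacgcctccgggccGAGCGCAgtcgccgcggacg
The Mt2 window held 4 matches, the Mt1 window 3 (at -23, +2 and +20 from the annotated start) and the Slc30a1 window 2. A window is placed on the annotated start and need not cover the whole promoter. The window of Slc30a10 held 3 matches, that of Atp7a 2 and that of Slc31a1 0, and Slc39a5 has 2 annotated start windows, 1 with a single match and 1 with 0. Of all 32851 promoter windows of this length, 25.7% held at least 1 match, 7.11% at least 2, 1.97% at least 3 and 0.517% at least 4. A match is a run of letters and was not tested for binding. Slc39a4 had no window among these sequences.

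On mm10, Slc39a4 lies on chr15:76612383-76616852 (minus strand) and Slc39a5 on chr10:128395931-128401224 (minus strand). Both zinc exporters are on chromosome 1, Slc30a10 at chr1:185454848-185468761 and Slc30a1 at chr1:191906781-191913247, both on the plus strand. Mt2 (chr8:94172618-94173567) and Mt1 (chr8:94179089-94180327) are plus-strand neighbours with 5521 bases between them. Slc31a1 lies at chr4:62360701-62391769 (plus strand) and Atp7a at chrX:106027224-106128160 (plus strand). The values below are read pairs on the exons of these genes, which add up to between 542 bases for Mt1 and 8198 bases for Atp7a. The longest stretch that an Mt1 and an Mt2 transcript share without a mismatch is 20 bases. On the opposite strand, exons of 1700034H15Rik cover 468 bases of Slc30a1 exons and those of Gm2061 cover 533 bases of Slc30a10 exons, and the counting used the strand.

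Library totals ran from 12159237 to 25947276 counts, and the 8 genes had between 62 and 22472 counts in a library. The label of the tissue was checked against markers: the summed level of 8 enterocyte and epithelial markers was 5375 to 25060 CPM (counts scaled to a common library size, per 1000000) in every library. Several features of the libraries touch the values that follow. P6 ileum replicate 4 stood apart, with a root mean square deviation from its group mean of 0.934 log2 units against 0.304 to 0.551 in the other 15 libraries, and its deviations followed the GC content of the transcript (Spearman's rho -0.754 across 12948 genes, which are not independent replicates). P6 ileum replicate 2 held markers of the gut wall, with a summed smooth muscle level of 188 CPM and a summed fibroblast level of 239 CPM, against at most 2.99 CPM and 42.2 CPM in the other 3 P6 ileum libraries. The title codes of the P6 mice share 2 stems, L41800 (replicates 1 and 3, a female and a male) and L42150 (replicates 2 and 4, a female and a male). What the codes stand for is not given in the sources used here, and the split by stem was noticed after the values were seen, so it is described with values within each stem.

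**Figure D1:**
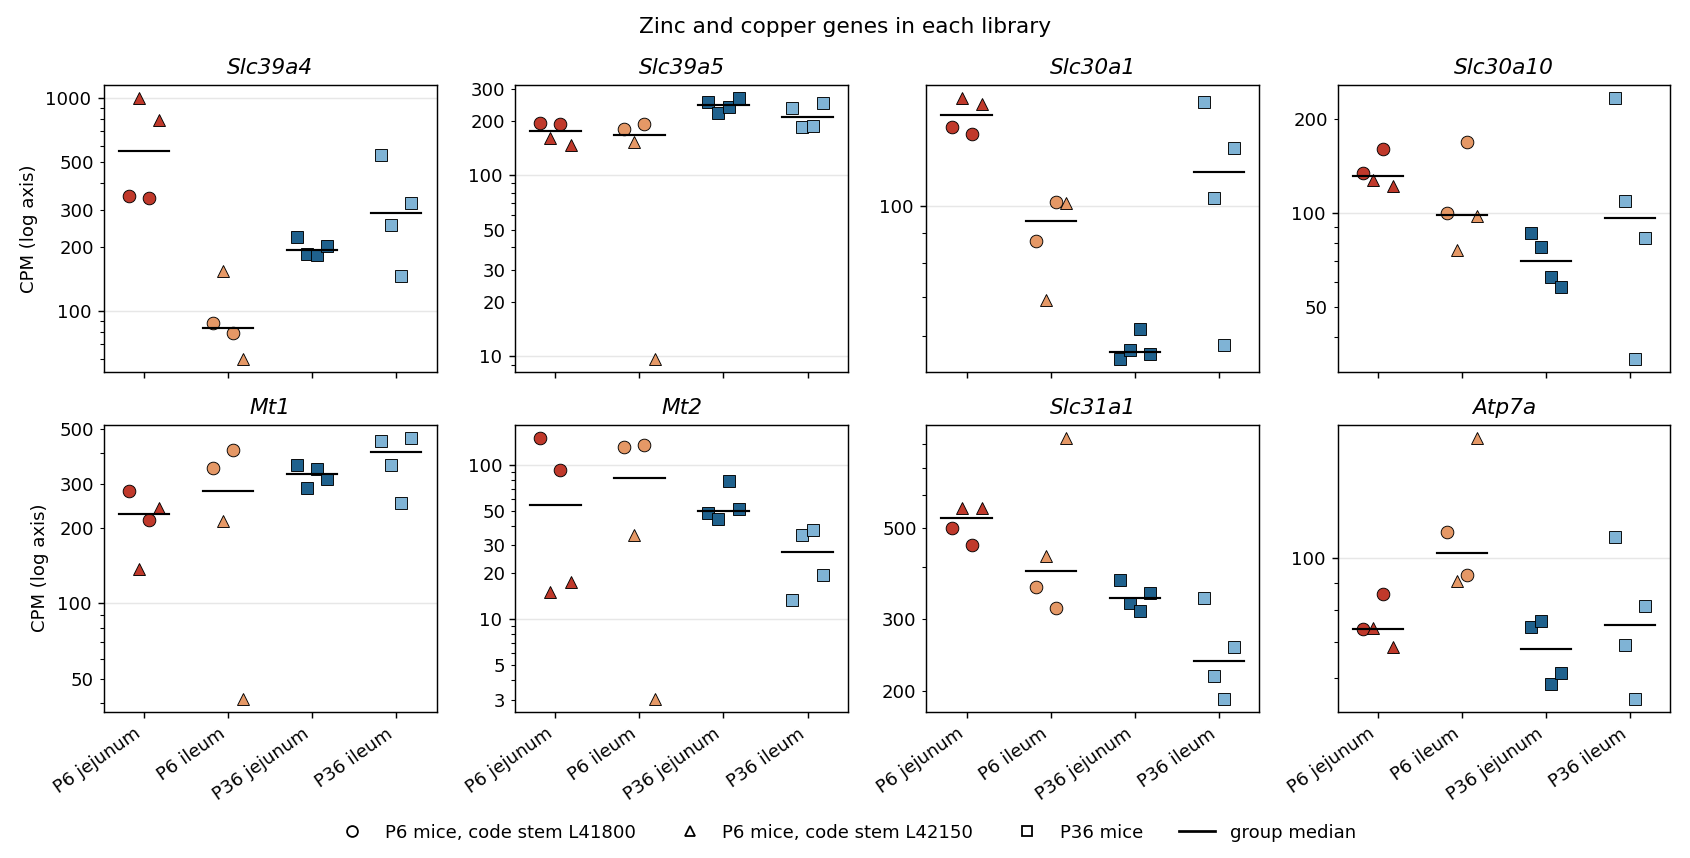
CPM of the 8 genes in each of the 16 libraries on log axes, with circles and triangles for the 2 code stems of the P6 mice, squares for P36 mice and a bar at each group median. Slc39a4 has its highest median in the P6 jejunum and its lowest in the P6 ileum, Mt2 separates by code stem at P6, and P6 ileum replicate 4 (the last triangle) is lowest in its group for Slc39a4, Slc39a5, Mt1 and Mt2 and highest for Slc31a1 and Atp7a.

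Per kilobase of exon, which is the scale on which genes can be compared, Mt1 had the highest mean level of the 8 genes in all 4 groups, from 404 ± 113 CPM per kilobase (SD, n = 4) in the P6 jejunum to 700.0 ± 179 in the P36 ileum. Atp7a had the lowest mean in all 4 groups, from 8.24 ± 1.11 CPM per kilobase in the P36 jejunum to 14.1 ± 4.37 in the P6 ileum. The second place changed: it was held by Slc39a4 both at P6 in the jejunum (279 ± 149) and at P36 in the ileum (142 ± 74.7), by Mt2 in the P6 ileum (135 ± 119) and by Slc39a5 in the P36 jejunum (114 ± 9.19). In the P6 ileum the ranges of mean ± 1 SD of neighbouring genes overlapped at each step of the order. In the P36 jejunum Mt1 lay beyond the spread of the next gene, the following 4 genes (Slc39a5, Mt2, Slc31a1, Slc39a4) overlapped in turn between 114 and 89.5 CPM per kilobase, and the exporters were far lower, Slc30a10 at 12.2 ± 2.27 and Slc30a1 at 11.0 ± 0.576.

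Slc39a4, the apical zinc importer of the enterocyte, was the gene of the 8 with the largest regional difference at P6, and that difference changed with age. In the P6 jejunum its level in replicates 1 to 4 was 346, 1003, 342 and 791 CPM, and in the P6 ileum of the same mice it was 87.9, 154, 79.6 and 59.6 CPM. The groups did not overlap, and the jejunum was higher than the ileum in 4 of 4 mice, by 3.94-fold to 13.3-fold. In the P36 jejunum it was 224, 185, 184 and 203 CPM and in the P36 ileum 541, 254, 147 and 323 CPM, so that the ileum was higher in 3 of 4 mice and the groups overlapped. The order of the group means was P6 jejunum (620 ± 331 CPM), P36 ileum (316 ± 166), P36 jejunum (199 ± 19.0) and P6 ileum (95.3 ± 41.0), and only the last step exceeded the spread of its neighbours.

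Between the regions at P6 the log2 fold change of Slc39a4 was 2.70 (jejunum over ileum, SE 0.43), with an adjusted p of 2.38e-04 by the quasi-likelihood test of edgeR with Benjamini-Hochberg adjustment over 13429 genes, the test behind every adjusted p given here. A gene passed at an adjusted p below 0.05. At P36 the difference was -0.67 (SE 0.40) with an adjusted p of 0.303. With age the jejunal level of Slc39a4 fell by 1.64 on the log2 scale (SE 0.41, adjusted p 0.00338) and its ileal level rose by 1.73 (SE 0.41, adjusted p 0.00216). The region by age interaction, which tests whether the regional difference at P6 differed from that at P36, was 3.37 (SE 0.58, adjusted p 0.00167). Without P6 ileum replicate 4 these values were 2.54 for the P6 regions (adjusted p 6.88e-04), 1.56 for the ileum with age (adjusted p 0.00647) and 3.20 for the interaction (adjusted p 0.00248).

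Within the P6 jejunum, Slc39a4 differed by code stem: the 2 mice of L42150 had 1003 and 791 CPM and those of L41800 346 and 342 CPM. The regional difference passed within each stem, at 2.04 (adjusted p 0.00645) in L41800 and 3.06 (adjusted p 0.00466) in L42150. The interaction also passed with the P6 mice of each stem, at 2.71 (adjusted p 0.00810) and 3.72 (adjusted p 0.00899). The difference with age in the jejunum did not: against the P6 mice of L41800 it was -0.79 (adjusted p 0.0713) and against those of L42150 -2.13 (adjusted p 0.00191). How far the stem bears on the jejunal difference with age was not tested.

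The 3 tested genes whose pattern over the 16 libraries was nearest to that of Slc39a4, by the root mean square difference of centred log2 CPM, were Mx2 (0.555 log2 units), Pfkfb4 (0.619) and Pak6 (0.619), against a root mean square of 1.09 for Slc39a4 about its own mean. Mx2, an interferon-induced GTPase, averaged 30.3, 2.84, 8.33 and 7.45 CPM in the P6 jejunum, P6 ileum, P36 jejunum and P36 ileum. Pfkfb4, an enzyme that sets the level of a glycolytic regulator, averaged 171, 44.4, 168 and 113 CPM, and Pak6, a protein kinase, 5.47, 1.02, 3.02 and 2.68 CPM. All 3 share with Slc39a4 a lowest mean in the P6 ileum.

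Slc39a5, the basolateral zinc importer, had nearly level values apart from 1 library. In the P6 jejunum it was 193, 160, 192 and 147 CPM, in the P36 jejunum 253, 221, 238 and 267 CPM, and in the P36 ileum 233, 185, 187 and 252 CPM. In the P6 ileum it was 180, 152, 192 and 9.66 CPM, the low value being that of replicate 4. Slc39a5 has the transcript of highest GC content among the 8 genes (60.0%), and in that library it lay 4.15 log2 units below the mean of the other 3. None of the 4 comparisons passed: the log2 fold change was 0.38 between the P6 regions (SE 0.51, adjusted p 0.626), 0.19 between the P36 regions (SE 0.51, adjusted p 0.857), 0.50 with age in the jejunum (SE 0.51, adjusted p 0.438) and 0.68 with age in the ileum (SE 0.51, adjusted p 0.267). Without P6 ileum replicate 4 the P6 regional value was -0.01 (adjusted p 0.967) and the ileal value with age 0.30 (adjusted p 0.0775). The 4 P36 jejunal libraries lay above the 4 P6 jejunal ones without overlap, and in a fit of these 8 libraries alone the difference of 0.51 passed (adjusted p 0.00127).

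**Figure D2:**
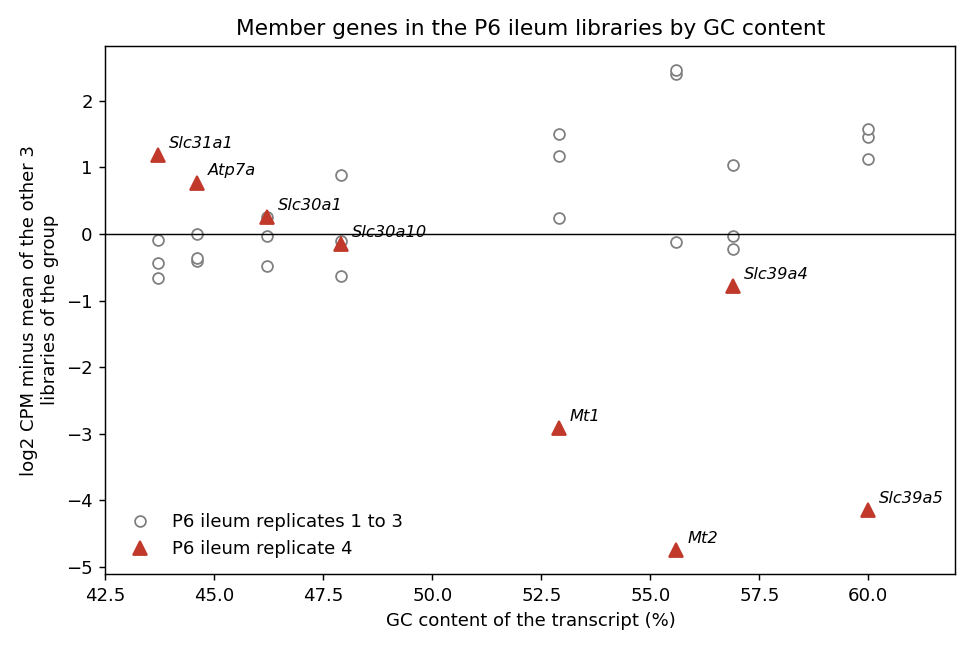
Deviation of the 8 genes in each P6 ileum library from the mean of the other 3 libraries of the group (log2 CPM), against the GC content of the gene's longest transcript in percent. Replicate 4 (triangles) runs from 1.18 log2 units above for Slc31a1 (43.7% GC) down to -4.75 for Mt2 (55.6% GC) and -4.15 for Slc39a5 (60.0% GC). The order is not strictly that of GC content: Slc39a4 (56.9% GC) lies at -0.78 and Mt1 (52.9% GC) at -2.91.

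Slc30a1, which encodes the zinc exporter ZNT1, was higher in the jejunum at P6 and higher in the ileum at P36. At P6 the jejunum had 137, 153, 133 and 150 CPM and the ileum 87.3, 69.2, 102 and 101 CPM. The jejunum was higher in 4 of 4 mice, by 1.30-fold to 2.21-fold, and the groups did not overlap. At P36 the jejunal libraries lay close together at 54.8, 56.9, 61.6 and 56.0 CPM, while the ileum had 151, 103, 57.9 and 126 CPM. The P36 ileum was higher in 3 of 4 mice, the exception being replicate 3, in which the regions were nearly equal (61.6 and 57.9 CPM). The P36 jejunum was the lowest of the 4 group means (57.3 ± 3.01 CPM), beyond the spread of the next, and the other 3 groups overlapped in turn (P6 jejunum 143 ± 9.78, P36 ileum 109 ± 39.5, P6 ileum 89.9 ± 15.3).

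The log2 fold change of Slc30a1 was 0.67 between the P6 regions (SE 0.21, adjusted p 0.0305) and -0.93 between the P36 regions (SE 0.22, adjusted p 0.00731). It fell by 1.32 with age in the jejunum (SE 0.22, adjusted p 9.84e-05), and in the ileum the value with age was 0.28 (SE 0.21, adjusted p 0.274). The interaction was 1.6 (SE 0.30, adjusted p 0.00331). The call between the P6 regions was the least firm of these: with the mouse as a block it was 0.68 (adjusted p 0.0536), without P6 ileum replicate 2, the library with markers of the gut wall, 0.56 (adjusted p 0.0831), and 5 of the 8 fits that left out 1 of the compared libraries did not pass. Within the stems it was 0.51 (L41800, adjusted p 0.311) and 0.82 (L42150, adjusted p 0.129), each with 2 mice. The jejunal difference with age passed against the P6 mice of either stem, at -1.24 (adjusted p 0.00161) and -1.36 (adjusted p 0.00257), as did the interaction, at 1.45 (adjusted p 0.0419) and 1.74 (adjusted p 0.0381).

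Slc30a10 had a similar order of group means, P6 jejunum 136 ± 17.0, P36 ileum 115 ± 84.7, P6 ileum 110 ± 39.9 and P36 jejunum 71.2 ± 13.2 CPM. Each step lay within the spread, and no comparison passed in the fit of all 16 libraries. In the P6 jejunum its level was 134, 128, 160 and 122 CPM, in the P6 ileum 99.9, 76.0, 168 and 97.8 CPM, and in the P36 jejunum 86.5, 77.7, 62.4 and 58.1 CPM. The P36 ileum spread the most, with 233, 109, 34.1 and 83.2 CPM. The difference with age in the jejunum, where the groups did not overlap, was -0.94 (SE 0.40, adjusted p 0.0612), and the interaction was 0.99 (SE 0.56, adjusted p 0.311). The antisense gene Gm2061 had 2766 to 8132 counts in the P6 libraries and 107 to 727 in the P36 libraries, and its part in the counts of Slc30a10 was not tested.

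**Figure D3:**
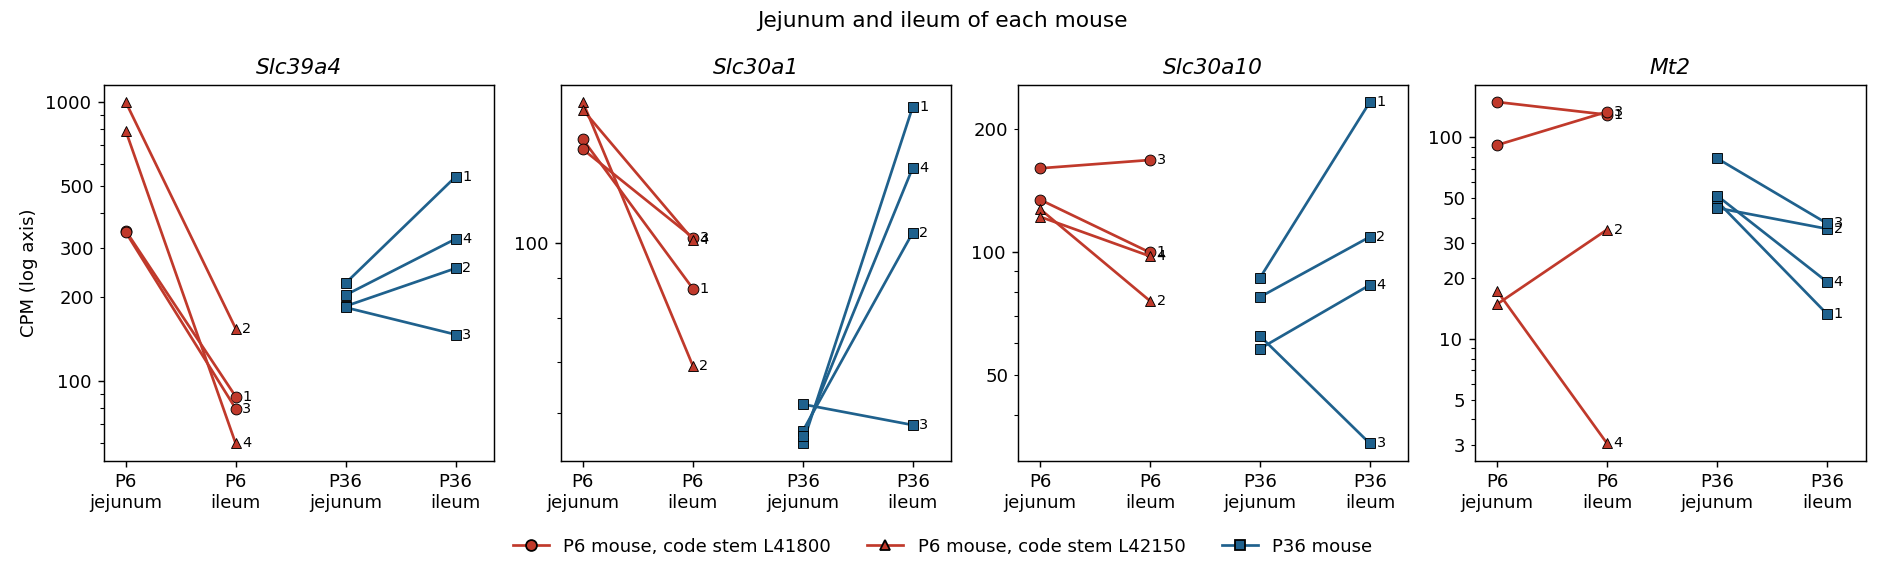
CPM of Slc39a4, Slc30a1, Slc30a10 and Mt2 in the jejunum and ileum of each mouse (log axes), with a line joining the regions of a mouse and its replicate number at the right end. Slc39a4 and Slc30a1 are higher in the jejunum of all 4 P6 mice and higher in the ileum of 3 of 4 P36 mice, with replicate 3 the exception.

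In the P36 ileum, replicate 1 had the highest and replicate 3 the lowest level of Slc39a4 (541 and 147 CPM), Slc30a1 (151 and 57.9 CPM) and Slc30a10 (233 and 34.1 CPM). The summed level of the 6 Paneth cell markers in that group was 15144 CPM in replicate 3 against 5424 to 8259 CPM in the other 3 libraries. The summed enterocyte and epithelial markers were 25060, 13905, 11899 and 16251 CPM in replicates 1 to 4, in the same order as Slc39a4, and the summed stem cell markers were 938 CPM in replicate 3 against 498 to 648 CPM in the others. The part of these cells in the spread was not tested. In bulk libraries of this kind, fewer cells of a type and less RNA per cell cannot be told apart. Without P36 ileum replicate 3, the P36 regional difference of Slc30a1 was -1.14 (adjusted p 1.48e-04), that of Slc39a4 -0.90 (adjusted p 0.166) and that of Slc30a10 -0.995 (adjusted p 0.0508). The difference of Slc30a1 with age in the ileum was then 0.50 (adjusted p 0.0120).

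Mt1, the metallothionein with more reads, was 282, 137, 216 and 241 CPM in the P6 jejunum and 358, 289, 345 and 315 CPM in the P36 jejunum. In the P6 ileum it was 348, 214, 412 and 41.5 CPM and in the P36 ileum 448, 358, 251 and 460 CPM. The low value of 41.5 CPM was again that of P6 ileum replicate 4, and the other 3 P6 ileal libraries lay within or near the range of the P36 ileum. With age the log2 fold change was 0.58 in both regions (SE 0.45 in each, adjusted p 0.301 in the jejunum and 0.287 in the ileum). Between the regions it was -0.21 at either age (SE 0.45 in each, adjusted p 0.765 at P6 and 0.812 at P36). The jejunal groups did not overlap, and in a fit of these 8 libraries alone the difference with age was 0.59 (adjusted p 0.0159).

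Mt2 varied most among the libraries of 1 group. In the P6 jejunum it was 150, 14.9, 91.6 and 17.3 CPM and in the P6 ileum 129, 34.9, 134 and 3.04 CPM. The 2 mice of stem L41800 were the high ones in both regions, with a mean 7.48 times that of the L42150 mice in the jejunum and 6.94 times in the ileum. The ileal values of L42150 given here include P6 ileum replicate 4, the library that stood apart, and the 6.94 leans on its 3.04 CPM. Replicate 2, at 34.9 CPM, was also below both L41800 libraries. Per kilobase, the ratio of Mt2 to Mt1, which are neighbours on the chromosome, was 0.516 and 0.414 in the jejunum of the L41800 mice against 0.106 and 0.0700 in that of the L42150 mice. In the ileum the ratio was 0.363 and 0.317 against 0.159 and 0.0714. The summed Paneth markers also separated by stem, at 473 to 814 CPM against 29.0 to 87.6 CPM over both regions, and most of that sum was intelectin 1 (Itln1), at 435 to 782 CPM against 4.36 to 10.3 CPM. Lyz1, the Paneth cell lysozyme, did not separate by stem (7.82 to 20.3 CPM against 6.03 to 17.7 CPM). Mmp7, a protease of Paneth cells, separated the other way within each region: in L41800 and L42150 in turn it was 1.75 and 1.37 against 5.67 and 4.45 CPM in the jejunum, and 4.64 and 3.90 against 7.58 and 13.2 CPM in the ileum. The part of the stem in the Mt2 values was not tested.

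At P36, Mt2 was 48.3, 44.7, 78.7 and 51.4 CPM in the jejunum and 13.3, 35.2, 37.5 and 19.2 CPM in the ileum. The groups did not overlap and the jejunum was higher in 4 of 4 mice, by 1.27-fold to 3.62-fold. In the fit of all 16 libraries the difference was 1.08 (SE 0.83, adjusted p 0.438), and in a fit of the 8 P36 libraries alone it was 1.11 (adjusted p 0.0347). With age the value was -0.29 for jejunal Mt2 (SE 0.82, adjusted p 0.792) and -1.51 for ileal Mt2 (SE 0.84, adjusted p 0.139). The fitted values had opposite signs by stem. Against the P6 mice of L41800, Mt2 fell by 1.12 in the jejunum (adjusted p 0.0194) and by 2.32 in the ileum (adjusted p 1.68e-04). Against those of L42150 the values were 1.83 (adjusted p 0.0675) and 0.51 (adjusted p 0.561). The sign of the ileal 0.51 rests on P6 ileum replicate 4 (3.04 CPM). Replicate 2, the other P6 ileum library of L42150, had 34.9 CPM, within the P36 ileal range. Without P6 ileum replicate 4, the lowest library, the ileal fall was -1.91 and passed (adjusted p 0.0242).

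Slc31a1, the copper importer CTR1, had lower means at P36 in both regions. In the jejunum it was 500.0, 557, 455 and 557 CPM at P6 and 373, 327, 313 and 346 CPM at P36, without overlap. In the ileum it was 357, 427, 319 and 830 CPM at P6 and 337, 217, 191 and 255 CPM at P36. The highest of these, 830 CPM, was P6 ileum replicate 4, in which Slc31a1, the gene of lowest GC content among the 8 (43.7%), lay 1.18 log2 units above the other 3. The fall with age passed in the ileum (-0.95, SE 0.26, adjusted p 0.00504) and, without that library, was -0.56 (adjusted p 0.00973). In the jejunum the value in the fit of all 16 libraries was -0.61 (SE 0.25, adjusted p 0.0573). Within the stems the ileal value was -0.44 (L41800, adjusted p 0.0708) and -1.31 (L42150, the stem of that library, adjusted p 0.00184). Between the regions it was 0.10 at P6 (SE 0.25, adjusted p 0.811) and 0.44 at P36 (SE 0.25, adjusted p 0.274), where the jejunum was higher in 4 of 4 mice. Without P6 ileum replicate 4 the P6 value was 0.50 (adjusted p 0.0371).

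Atp7a, the pump that carries copper out of the enterocyte, was the member with the smallest spread about its own mean over the 16 libraries (0.391 log2 units). At P6 the jejunum had 73.8, 74.2, 85.9 and 68.3 CPM and the ileum 112, 90.5, 92.9 and 167 CPM. At P36 these were 74.4, 76.4, 58.4 and 61.2 CPM (jejunum) and 109, 69.0, 54.8 and 81.5 CPM (ileum). The ileum was higher in 4 of 4 P6 mice and the P6 groups did not overlap. The regional difference at P6 was -0.61 (SE 0.22, adjusted p 0.0461), and the fall with age in the ileum was -0.56 (SE 0.22, adjusted p 0.0377). Neither call was firm. Of the 8 fits that left out 1 of the compared libraries, 6 lost the P6 regional call and 5 the ileal call with age. Without P6 ileum replicate 4 the values were -0.38 (adjusted p 0.129) and -0.32 (adjusted p 0.140). With the mouse as a block the regional value was -0.57 (adjusted p 0.0633), and within the stems it was -0.36 (adjusted p 0.419) and -0.87 (adjusted p 0.101). The ileal value with age was -0.38 (adjusted p 0.163) against the L41800 mice and -0.69 (adjusted p 0.0592) against the L42150 mice, and without P36 ileum replicate 3 it was -0.41 (adjusted p 0.118). No difference passed at P36 (-0.22, SE 0.22, adjusted p 0.561) or with age in the jejunum (-0.16, SE 0.21, adjusted p 0.562).

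**Figure D4:**
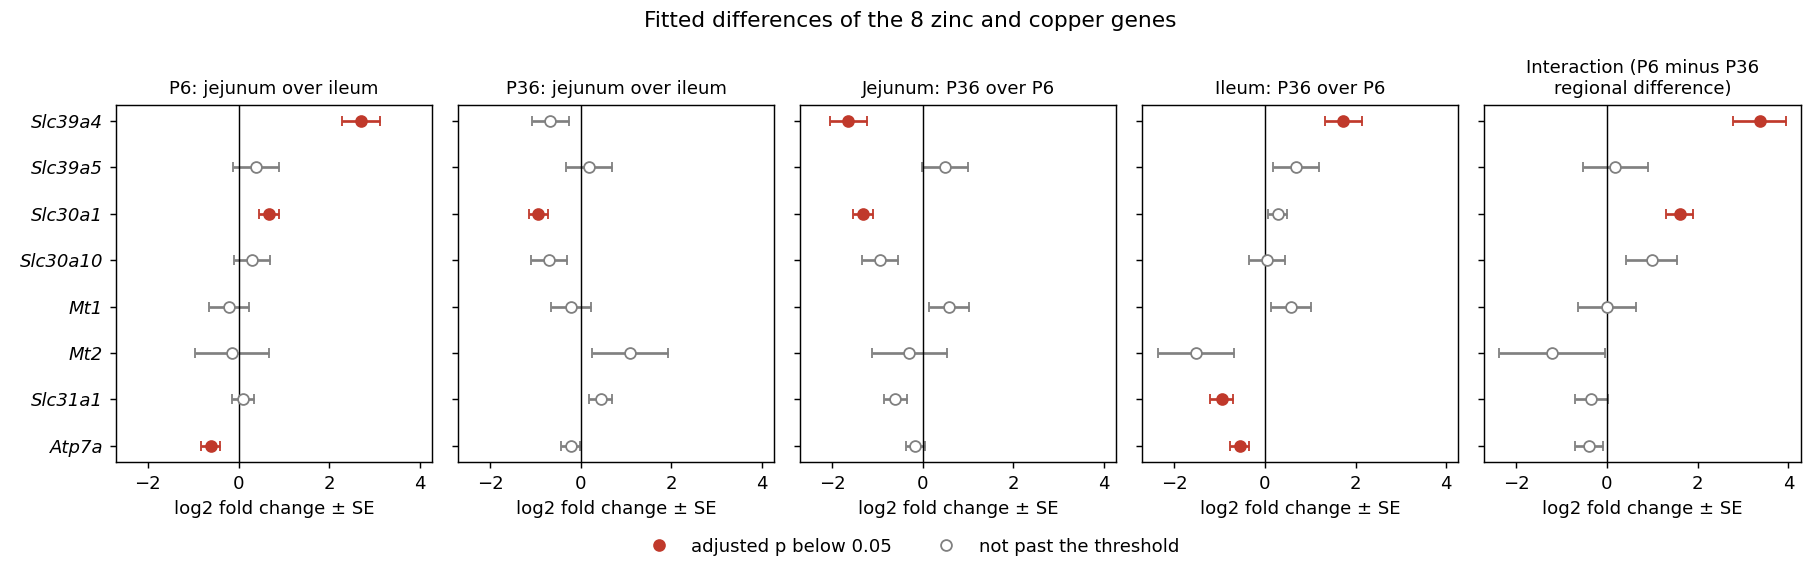
Log2 fold change of the 8 genes with its SE in the 4 comparisons and in the interaction, filled where the adjusted p was below 0.05. The interaction is positive and filled for Slc39a4 (3.37) and Slc30a1 (1.6), and the bar of Mt2 is the widest in each panel.

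Counted over the 8 genes, 3 passed between the regions at P6 (Slc39a4 and Slc30a1 higher in the jejunum, Atp7a higher in the ileum), where 25.9% of the 13429 tested genes passed (11.1% higher in the jejunum, 14.8% in the ileum). Of the 3, 1, Slc39a4, was also past the fold minimum of the study (an absolute log2 fold change above 2), as were 6.5% of all genes. With the mouse as a block, Slc39a4 alone passed. At P36 Slc30a1 was the 1 gene that passed, higher in the ileum, against 16.1% of all genes in either direction and 7.8% in that one. With age 2 of the 8 passed in the jejunum, both lower (51.6% of all genes in either direction, 26.9% lower), and 3 in the ileum, 1 higher and 2 lower (55.7%, with 25.5% higher and 30.1% lower). The interaction passed for 2 of the 8, both positive, against 8.69% of all genes and 3.68% with that sign. The median log2 fold change over the 8 was 0.20 between the P6 regions, -0.22 between the P36 regions, -0.45 with age in the jejunum and 0.17 with age in the ileum, against medians over all tested genes of -0.05, -0.04, -0.01 and -0.03.

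The other genes of the pathway came from 5 lists with 43 genes beside the 8, of which 37 were tested. Of these, 13 (35.1%) passed between the P6 regions (8 higher in the jejunum, 5 lower), beside 25.9% of all tested genes, and 7 (18.9%) between the P36 regions (7 higher in the jejunum), beside 16.1%. With age 21 (56.8%) passed in the jejunum (9 higher at P36, 12 lower), beside 51.6% of all genes, and 23 (62.2%) in the ileum (10 higher, 13 lower), beside 55.7%. In the interaction 8 (21.6%) passed, beside 8.69%. The counts without P6 ileum replicate 4 were 19 for the P6 regions (32.6% of all genes), 27 for the ileum with age (62%) and 10 for the interaction (14%). Gained between the P6 regions were Slc39a8, Slc30a5, Ccs, Cox11, Sco1 and Sod1. For the ileum with age Slc39a3, Slc39a13, Gpr39, Atox1 and Cox11 were gained and Heph was lost. The interaction gained Slc39a7 and Gpr39. With the mouse as a block the P6 count was 15 (27% of all genes), gaining Slc39a8 and Gpr39. The P36 count was then 10 (18.1%), gaining Slc39a14, Slc30a9, Mtf1 and Steap3 and losing Slc30a6. The interaction count stayed at 8 (9.64%), gaining Gpr39 and losing Sco2. The shares with age lay near those of all genes.

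**Figure D5:**
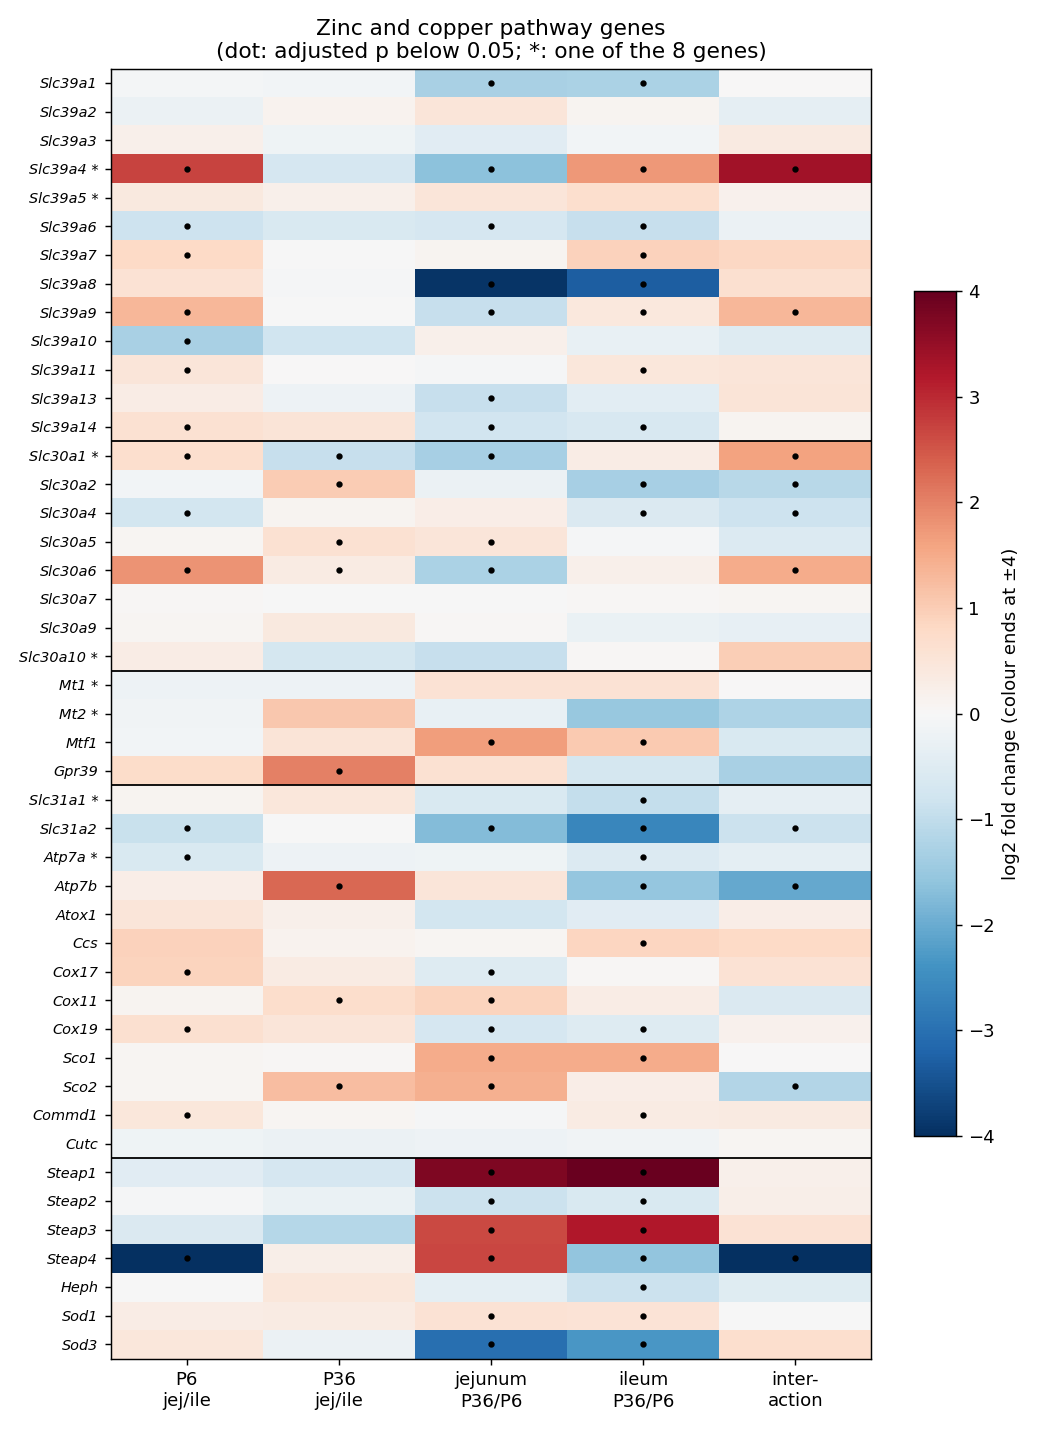
Log2 fold changes of the tested zinc and copper genes in the 4 comparisons and the interaction (red higher in the first-named group, blue lower, colours ending at 4 either way), with lines between the 5 lists and a dot where the adjusted p was below 0.05. Slc39a8, Slc31a2 and Sod3 are blue with age in both regions and Mtf1, Sco1, Steap1, Steap3 and Sod1 red in both.

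Of the other zinc importers of the ZIP family, 11 of 12 were tested, and Slc39a12 was not. With age 6 of the 11 passed in the jejunum, all 6 lower at P36 (51.6% of all genes passed, 26.9% lower). In the ileum 7 passed, 4 of them lower (55.7% of all genes passed, 30.1% lower). Slc39a8, which takes up zinc, manganese and cadmium, changed the most: its means for jejunum and ileum were 334 ± 22.8 and 222 ± 58.4 CPM at P6 against 21.8 ± 4.07 and 22.6 ± 10.1 CPM at P36. The jejunal level fell by 3.93 (SE 0.28, adjusted p 1.13e-08) and the ileal level fell by 3.29 (SE 0.27, adjusted p 6.81e-08). Slc39a1, an importer of the plasma membrane, fell by 1.29 and 1.28, Slc39a14, which also carries iron and manganese, by 0.75 and 0.65, and Slc39a6 by 0.68 and 0.93. Slc39a13 fell by 0.93 in the jejunum, and its ileal value was -0.42 (adjusted p 0.276). The ileal fall of Slc39a13 passed without P6 ileum replicate 4 (-0.69, adjusted p 0.0129), as did that of Slc39a3 (-0.45, adjusted p 0.00113). In the ileum Slc39a7, which releases zinc from the endoplasmic reticulum, rose by 0.93, Slc39a9 by 0.42 and Slc39a11 by 0.45.

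Between the P6 regions 6 of these 11 passed, beside 25.9% of all genes (11.1% higher in the jejunum, 14.8% in the ileum). Slc39a7 (0.80), Slc39a9 (1.31), Slc39a11 (0.49) and Slc39a14 (0.61) were higher in the jejunum, and Slc39a6 (-0.84) and Slc39a10 (-1.30) in the ileum. The values of Slc39a7 and Slc39a10 without P6 ileum replicate 4 were 0.52 and -0.86, and both passed. At P36, 0 of the 11 passed in the fit without a block or GC correction, beside 16.1% of all genes. In that fit 3 of the 11 had an unadjusted p below 0.05. With the mouse as a block, Slc39a14 passed. With the GC correction, Slc39a6, Slc39a10 and Slc39a14 passed at P36, where 23.7% of all genes passed. Slc39a9 was the 1 importer beside Slc39a4 that passed in the interaction (1.34, SE 0.22, adjusted p 0.00117), with 402 ± 17.2 CPM in the P6 jejunum against 162 ± 29.7, 213 ± 23.7 and 217 ± 39.8 CPM in the P6 ileum, P36 jejunum and P36 ileum. It fell by 0.92 with age in the jejunum. Without P6 ileum replicate 2, the P6 regional call of Slc39a7 and the ileal rise of Slc39a9 were lost (adjusted p 0.0515 and 0.0817).

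Among the other exporters of the ZnT family 6 of 8 were tested. Slc30a8 and Slc30a3 were not, Slc30a3 having 16 counts in all libraries together. Slc30a6, which partners another transporter to carry zinc into the secretory pathway, was high in 1 group: 65.2 ± 6.17 CPM in the P6 jejunum against 18.7 ± 1.51, 27.1 ± 2.15 and 21.5 ± 0.874 CPM in the P6 ileum, P36 jejunum and P36 ileum. Its regional difference was 1.81 at P6 (SE 0.11, adjusted p 2.75e-08) and 0.34 at P36 (SE 0.11, adjusted p 0.0484), with an interaction of 1.47 (SE 0.16, adjusted p 2.46e-05), and it fell by 1.27 with age in the jejunum. With the mouse as a block the P36 difference did not pass (adjusted p 0.0528). Slc30a5, the known partner of Slc30a6, was higher in the P36 jejunum than in the P36 ileum (0.61) and rose by 0.50 with age in the jejunum. Slc30a4 and Slc30a2, which load zinc into vesicles, went the other way in the interaction (-0.83 and -1.11): Slc30a4 was higher in the P6 ileum (-0.72), and Slc30a2 was higher in the P36 jejunum (1.01) and fell by 1.34 with age in the ileum, where Slc30a4 fell by 0.57 (-0.35 without P6 ileum replicate 4). The interaction of Slc30a2 did not pass without P6 ileum replicate 2 (adjusted p 0.0556).

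Of the other metallothioneins and zinc sensors, Mt3 (50 counts in all libraries) and Mt4 (43 counts) were too low to test. Mtf1, the factor that binds MREs, averaged 28.8 and 30.8 CPM in the P6 jejunum and ileum and 90.9 and 63.0 CPM at P36, a rise of 1.66 in the jejunum (SE 0.21, adjusted p 6.92e-06) and of 1.03 in the ileum (SE 0.21, adjusted p 5.54e-04). Gpr39, a receptor for extracellular zinc, was higher in the P36 jejunum (47.8 ± 4.29 CPM) than in the P36 ileum (11.7 ± 5.98 CPM), by 2.03 (SE 0.33, adjusted p 4.64e-04).

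Among the other copper transporters and chaperones 11 of 11 were tested. Slc31a2, a relative of the copper importer that acts inside the cell, averaged 19.0 ± 1.15 (jejunum) and 35.2 ± 6.31 CPM (ileum) at P6 against 5.69 ± 0.602 and 5.72 ± 0.973 CPM at P36. Its jejunal level fell by 1.74 (SE 0.16, adjusted p 2.19e-07) and its ileal level fell by 2.61 (SE 0.17, adjusted p 3.3e-09). It was higher in the P6 ileum than jejunum (-0.88) and passed in the interaction (-0.87, adjusted p 0.0232). Atp7b, the second copper pump, whose loss causes Wilson disease in humans, averaged 24.2 ± 1.53 CPM in the P36 jejunum and 4.88 ± 1.97 CPM in the P36 ileum, a difference of 2.31 (SE 0.23, adjusted p 5.56e-06). It fell by 1.55 with age in the ileum and passed in the interaction (-2.05, SE 0.31, adjusted p 6.51e-04), whereas for Atp7a the interaction was -0.40 (SE 0.30, adjusted p 0.464).

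The mitochondrial copper factors moved in different directions. Sco1, which delivers copper to cytochrome c oxidase, rose with age by 1.47 (jejunum) and 1.48 (ileum). Sco2 and Cox11, which act at the same enzyme, rose in the jejunum by 1.43 and 0.89 and were higher there than in the ileum at P36 (1.24 and 0.69). The interaction of Sco2 was -1.16 (adjusted p 0.0495) and did not pass without P6 ileum replicate 2 or with the mouse as a block (adjusted p 0.0872 and 0.0761). Cox17 and Cox19 were higher in the P6 jejunum than ileum (0.90 and 0.63) and fell with age in the jejunum (by 0.52 and 0.68), and Cox19 fell by 0.52 in the ileum, a call lost without P6 ileum replicate 2 (adjusted p 0.16). Commd1, which takes part in copper excretion, was 0.45 higher in the P6 jejunum and rose by 0.34 in the ileum, a call lost with the GC correction (adjusted p 0.0539). Ccs, the copper chaperone of superoxide dismutase, rose by 0.87 in the ileum, and by 0.54 without P6 ileum replicate 4. Without that library the P6 regional value of Cox19 was 0.41.

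Of the metalloreductases and copper enzymes 7 of 8 were tested, and Cp (35 counts in all libraries) was not. Sod1, the cytosolic copper and zinc superoxide dismutase, rose with age by 0.56 (jejunum) and 0.53 (ileum), and Sod3, the secreted one, fell by 3.00 and 2.32, with 527 counts in the 8 P6 libraries and 73 in the 8 P36 libraries. Heph, the copper-dependent ferroxidase of the enterocyte, fell by 0.87 in the ileum, a call lost without P6 ileum replicate 4 (adjusted p 0.0736). In the STEAP family, which includes reductases of iron and copper, Steap1 rose by 3.74 and 3.96, with 71 counts in the P6 libraries and 980 in the P36 libraries. Steap3 rose by 2.63 and 3.20, while Steap2 fell by 0.86 and 0.62. Steap4 was sparse, with 6 counts in the P6 jejunum, 96 in the P6 ileum and 38 and 30 in these regions at P36. Its fitted values of -3.99 between the P6 regions, 2.66 and -1.57 with age and -4.24 in the interaction depend on the prior count.

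The lists of other cell types were summed for the libraries in which the members differed. The enterocyte and epithelial list (8 of 8 markers with counts) summed to 9481 to 11720 CPM in the P6 jejunum, 5375 to 6947 in the P6 ileum, 18055 to 23558 in the P36 jejunum and 11899 to 25060 in the P36 ileum, without overlap between the P6 regions or between the ages within a region. Its members did not all go one way at P6, where Fabp2, a fatty acid binding protein of enterocytes, was 3.40 higher in the jejunum and Epcam, a general epithelial marker, was higher in the ileum (-0.56). The myeloid list (6 of 6) summed to 418 to 502 CPM in the P6 jejunum, 160 to 350 in the P6 ileum and 20.8 to 58.4 over the P36 libraries. Its members differed in direction: with age Csf1r fell by 7.79 (jejunum) and 7.83 (ileum) while Itgam rose by 3.92 and 3.67 and Lyz2 rose by 2.71 in the jejunum. Between the P6 regions Csf1r was 0.90 higher in the jejunum, and Itgam was higher in the ileum (-1.20). The pancreatic acinar list, of which 3 of 5 markers had counts while Cpa1 and Ptf1a had none, summed to 89.1 to 278 CPM in the P6 jejunum and to at most 2.47 CPM in the other groups. The goblet list (6 of 6) summed to 1691 to 4021 CPM at P6 and 11169 to 22966 CPM at P36, and the Paneth list (6 of 6) to 29.0 to 814 and 4418 to 15144 CPM. In the P6 ileum the smooth muscle list (5 of 5) ran from 1.19 to 188 CPM and the fibroblast list (5 of 5) from 20.1 to 239 CPM, the highest of each in replicate 2. The T cell list (6 of 6) was 5.74 to 94.2 CPM in the P36 jejunum and at most 9.91 CPM elsewhere. From P6 to P36 the tuft list (4 of 5, Il25 at 0) went from 0.625 to 3.58 CPM to 9.56 to 20.8 CPM, the B and plasma cell list (5 of 5) from 0.0436 to 2.21 to 3.75 to 68.1 CPM, and the enteric neuron and glia list (5 of 5) from 3.48 to 19.7 down to 0.530 to 1.12 CPM, each without overlap. The stem cell list (5 of 5) summed to at most 519 CPM at P6 and to 498 to 938 CPM at P36. The enteroendocrine list (6 of 6) was 112 to 244 CPM, the endothelium list (5 of 5) 4.34 to 40.0 CPM and the red blood cell list (1 of 5) at most 1.32 CPM. The part of these cells in the differences of the zinc and copper genes was not tested.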

How the data were processed

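Bulk RNA-seq of 16 libraries (4 per group) was analysed. The values are raw counts of read pairs per gene as the authors deposited them. Per the labels, stranded mRNA libraries were trimmed with Trimmomatic 0.38 and aligned to mm10 with STAR 2.5.3, and per the file headers exon reads were summed by gene with featureCounts 1.6.3, using the strand. Totals ran from 12159237 to 25947276 counts per library.

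From these counts, 13429 of 24421 genes passed the filterByExpr function of edgeR 4.0.16 (R 4.3.3). One quasi-likelihood model with TMM scaling and 4 group means was fitted over all 16 libraries, with Benjamini-Hochberg adjustment across the tested genes. The SE is the absolute log2 fold change divided by the square root of F. CPM values are TMM-scaled, with a prior count of 2 on the log2 scale. The script was tested on simulated data. No pair of replicates agreed within sampling noise (smallest chi-square per gene 11.0).

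Jejunum and ileum with the same number came from the same mouse, per the series' design text. Their deviations from the group means correlated at 0.157 to 0.391 at P6 and 0.240 to 0.347 at P36. For different mice the correlations were -0.284 to 0.12 at P6 (mean -0.106) and -0.367 to 0.232 at P36 (mean -0.101).

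The members and lists were chosen with earlier results of these data known. Named were the 8 members, list genes that passed in a fit given here or were not tested, and the 3 nearest genes of each member past the fold minimum. Alternatives were DESeq2 1.42.0, other scalings, filters, covariates and samples. A GC correction (12948 genes have a GC content) and fits with the P6 mice of 1 code stem were chosen after seeing the data. The correction took out the GC trend of each library relative to its group mean and left any trend in that mean.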

Additional observations from a re-analysis of the deposited data

Results flagged for a closer look

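The level of Slc39a5 in P6 ileum replicate 4 lay far from the other 3 libraries of its group: the gap was 0.92 of the group's range, above Dixon's critical value for 4 samples. This was 1 of 32 groups tested in this way, and chance alone marks about 1 in 20.

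The regional difference of Slc39a4 differed between the ages, with an interaction of 3.37 on the log2 scale (adjusted p 0.00167). That of Slc30a1 also differed, with an interaction of 1.6 (adjusted p 0.00331). These were 2 of the 8 genes, where 8.69% of all tested genes passed.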

How the results depend on the processing

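Of 848 recomputed log2 fold changes of the 8 genes, 756 kept their direction and their side of the threshold, 31 lost and 20 gained a call, and 41 changed sign, 0 of them with an adjusted p below 0.05 in either fit. The cause was not tested. The number of genes called between the P6 regions (3) was 1 with the fold minimum, 1 with the mouse as a replicate block, 1 within each code stem and 1 to 3 when 1 library was left out. At P36 (1) it was 0 with the fold minimum, 2 in a fit of only the libraries compared and 3 with the GC correction and the block together. With age in the jejunum (2) it was 0 with the fold minimum, 4 with DESeq2 and 6 in a fit of only the libraries compared, and in the ileum (3) it was 0 with the fold minimum. For DESeq2, fits of only the libraries compared, stem fits and the GC correction with the block, no share of all genes is given. Counts from those fits cannot be read as particular to the 8 genes. The block changed no call of the 8 genes other than those of Slc30a1 and Atp7a at P6.

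The changes of sign between the P6 regions were Mt1 at 0.057 with the block, 0.10 with the GC correction and block and 0.56 in stem L42150, Mt2 at 0.12 with the block, 0.11 with the GC correction and 0.16 with both, and Slc31a1 at -0.19 with library totals and -0.18 in stem L42150. With age, Mt2 was 1.83 in the jejunum and 0.51 in the ileum in stem L42150. In the ileum Slc30a10 was -0.060 with library totals, -0.052 with sex as a covariate and -0.22 in stem L41800, and Mt1 was -0.0042 in stem L41800. In the interaction, stem L41800 gave -0.14 for Slc39a5, -0.39 for Mt1 and 0.057 for Slc31a1, and Mt1 was -0.17 with library totals and -0.016 with a mean CPM of at least 1. Leaving out 1 library gave P6 ranges of -0.0097 to 0.59 (Slc39a5), -0.57 to 0.10 (Mt1), -0.86 to 0.28 (Mt2) and -0.073 to 0.50 (Slc31a1), -0.63 to 0.43 for Mt2 with age in the jejunum, -0.55 to 0.37 for Slc30a10 in the ileum, and interactions of -0.20 to 0.39 (Slc39a5), -0.35 to 0.31 (Mt1) and -0.52 to 0.053 (Slc31a1).

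The GC correction added a P6 call for Slc39a5 (0.82, adjusted p 0.0400), whose value without P6 ileum replicate 4 was -0.01. This correction brings each library to the GC trend of its group mean. The P6 ileum mean includes replicate 4, so the part of that library in the mean stays. Scaling by library totals moved the median of all genes by -0.287 between the P6 regions. For the other pathway genes, the P36 count of 7 was 11 with the GC correction. The share of all genes passing at P36 went from 16.1% to 23.7%. The P6 count of 13 was 18 with this correction, and the share of all genes went from 25.9% to 38.5%. The interaction count of 8 was 12, and the share of all genes went from 8.69% to 19.8%.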
